A study of Mus musculus with 20 samples.

Results

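Basophils, mast cells, and eosinophils are rare cells of the immune system that arise from myeloid progenitors in bone marrow, and their lineage genes were examined here in marrow from which most mature cells had been removed. The 10 genes, taken as a named list, encode granule proteases (Cpa3 and Mcpt8), subunits of the high-affinity IgE receptor (Ms4a2 for the beta chain and Fcer1a for the alpha chain), eosinophil granule proteins (Prg2, Prg3, and Epx), type 2 cytokines (Il4 and Il13), and a transcription factor of mast cells (Mitf). They are 10 of 21951 protein-coding genes of the GENCODE annotation of mm10. Each gene was given a window of its body and 20 kb on each side, and every H3K27ac, H3K4me1, or H3K4me3 peak that touched the window was counted for it. The windows of Il4 and Il13 overlap, as do those of Prg2 and Prg3, so totals over the list use 8 merged windows of 635 kb and count a shared peak once.

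ChIP-Seq, which sequences the DNA bound to a modified histone after its precipitation with an antibody, was done on lineage-negative (Lin-) bone marrow cells of mice on a C57BL/6 background. WT mice were Ep300 fl/fl without Cre, Ep300Δ/Δ mice were Mx1-Cre with Ep300 fl/fl, Tet2-/- mice were Ep300 fl/fl with a germline loss of Tet2, and Ep300Δ/ΔTet2-/- mice carried Mx1-Cre, Ep300 fl/fl, and the Tet2 loss. All groups, WT included, received poly(I:C) as young adults. Poly(I:C) induces interferon, which switches on the Mx1 promoter, and this promoter is active in blood cells and in some other tissues. The Lin- fraction had a stated purity above 80% after column depletion. The number of mice behind each library, their sex, and their age at collection are not given for these libraries in the sources used here. At the level of the study, both sexes were used and experiments were done within weeks of the injections unless another time was indicated. The 12 peak lists come from 3 marks in 4 genotypes with a single library behind each, so variation between animals could not be measured and the comparisons carry no P values. The H3 and H3K27me3 libraries were not analysed here.

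In mature basophils and mast cells, the IgE receptor binds antigen-specific IgE and triggers release of granule proteases, histamine, and type 2 cytokines. Eosinophil granules instead hold basic proteins and a peroxidase. GATA factors and C/EBP factors act in the progenitors of all of these cells, with Mitf more prominent in mast cells. Active enhancers and promoters bear H3K27ac, poised and active enhancers both bear H3K4me1, and H3K4me3 is foremost a promoter mark. The acetyltransferase p300, encoded by Ep300, places H3K27ac, and Tet2 oxidizes methylated cytosine in DNA.

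Distal acetylation next to these genes is shown as sequence because the results below turn on it. The windows below span 300 bases around the summit of the strongest H3K27ac peak of the WT list outside every promoter, for the genes that had such a peak, where a promoter is 3 kb on either side of any annotated transcript start. Il13 shares its window with Il4. Capitals mark matches, on either strand, to the letters of GATA factors (AGATAA or TGATAA), RUNX (AACCACA), C/EBP (TTGCNNAA), PU.1 (GAGGAAGT), STAT5 (TTCNNNGAA), Mitf and other E-box factors (CACGTG or CATGTG), and AP-1 (TGANTCA). Sequences are from GRCm38, the assembly also called mm10, on the forward strand.
Ms4a2, chr19:11612746-11613045, intergenic: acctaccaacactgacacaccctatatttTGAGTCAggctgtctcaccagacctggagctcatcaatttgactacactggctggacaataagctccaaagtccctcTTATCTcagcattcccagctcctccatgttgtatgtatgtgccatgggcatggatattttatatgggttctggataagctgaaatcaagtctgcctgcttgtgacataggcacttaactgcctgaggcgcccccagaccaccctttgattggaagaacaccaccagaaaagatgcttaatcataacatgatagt
Prg2, chr2:84967624-84967923, intergenic: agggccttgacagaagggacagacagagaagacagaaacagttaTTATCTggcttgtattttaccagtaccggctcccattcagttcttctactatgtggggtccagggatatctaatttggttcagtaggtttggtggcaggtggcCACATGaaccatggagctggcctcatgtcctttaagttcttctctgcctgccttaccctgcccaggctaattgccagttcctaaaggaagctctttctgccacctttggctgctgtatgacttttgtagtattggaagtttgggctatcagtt
Prg3, chr2:85012503-85012802, P2rx3 intron: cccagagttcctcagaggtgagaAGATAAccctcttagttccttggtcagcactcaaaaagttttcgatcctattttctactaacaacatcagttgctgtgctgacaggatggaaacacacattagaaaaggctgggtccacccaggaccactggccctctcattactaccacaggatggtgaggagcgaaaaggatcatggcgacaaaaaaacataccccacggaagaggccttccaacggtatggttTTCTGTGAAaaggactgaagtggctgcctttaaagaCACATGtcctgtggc
Il4 and Il13, chr11:53623811-53624110, intergenic: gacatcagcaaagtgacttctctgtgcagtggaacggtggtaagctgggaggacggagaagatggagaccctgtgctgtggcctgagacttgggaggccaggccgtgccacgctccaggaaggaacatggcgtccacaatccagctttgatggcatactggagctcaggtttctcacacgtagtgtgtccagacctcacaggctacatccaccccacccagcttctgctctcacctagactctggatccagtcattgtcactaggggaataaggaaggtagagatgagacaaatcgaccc
Mitf, chr6:97820575-97820874, Mitf intron: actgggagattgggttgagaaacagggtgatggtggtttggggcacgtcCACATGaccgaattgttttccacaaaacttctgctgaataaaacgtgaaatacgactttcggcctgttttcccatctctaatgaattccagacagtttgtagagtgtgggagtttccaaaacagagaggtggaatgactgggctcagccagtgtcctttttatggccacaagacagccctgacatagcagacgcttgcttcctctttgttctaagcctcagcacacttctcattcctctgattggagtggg
GATA letters were in 3 of these 5 windows, next to Ms4a2, Prg2, and Prg3, beside 20.7% of the 10830 windows of the same length at all WT H3K27ac peaks outside promoters. E-box letters were in 3 of 5 windows, next to Prg2, Prg3, and Mitf, beside 26.3% of all windows. The Ms4a2 window also held the letters of AP-1 (9.43% of all windows) and the Prg3 window those of STAT5 (8.81%). No letters of RUNX (7.41% of all windows), C/EBP (10.6%), or PU.1 (3.56%) were in the 5 windows, and the Il4 window held none of the 7 motifs. These matches describe letters in a window and do not show that a factor was bound.

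Around the starts of the genes, promoter sequence from RefSeq on GRCm38, matched by symbol for 9 of the 10 genes, is given for the 4 whose start lay under an H3K4me3 or H3K27ac peak and whose 250 upstream bases were free of annotated exons. The run is 5′ to 3′ on the strand of the gene, with the same letters in capitals.
Fcer1a, chr1:173227230-173227479, minus strand: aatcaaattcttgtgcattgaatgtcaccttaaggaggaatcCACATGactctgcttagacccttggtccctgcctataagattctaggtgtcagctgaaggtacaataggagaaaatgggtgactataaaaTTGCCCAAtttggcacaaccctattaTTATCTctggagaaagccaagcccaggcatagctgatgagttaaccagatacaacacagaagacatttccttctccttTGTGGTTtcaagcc
Prg3, chr2:84987965-84988214, plus strand: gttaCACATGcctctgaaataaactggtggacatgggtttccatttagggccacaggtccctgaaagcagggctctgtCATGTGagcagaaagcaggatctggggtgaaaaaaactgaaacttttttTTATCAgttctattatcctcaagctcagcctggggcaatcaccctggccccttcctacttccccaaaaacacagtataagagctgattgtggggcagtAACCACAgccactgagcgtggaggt
Epx, chr11:87875537-87875786, minus strand: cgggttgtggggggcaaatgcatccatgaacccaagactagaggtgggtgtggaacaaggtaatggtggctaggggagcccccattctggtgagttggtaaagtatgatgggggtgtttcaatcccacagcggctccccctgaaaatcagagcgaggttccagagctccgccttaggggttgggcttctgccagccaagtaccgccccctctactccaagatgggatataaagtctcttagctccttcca
Il4, chr11:53617339-53617588, minus strand: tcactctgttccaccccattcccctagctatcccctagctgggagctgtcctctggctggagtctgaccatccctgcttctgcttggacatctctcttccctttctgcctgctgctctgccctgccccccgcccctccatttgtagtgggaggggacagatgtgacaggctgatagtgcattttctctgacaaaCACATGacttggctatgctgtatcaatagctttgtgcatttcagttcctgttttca
The Fcer1a promoter held letters of E-box factors, C/EBP, GATA factors, and RUNX. The Prg3 promoter held those of E-box factors at 2 places, of GATA factors, and of RUNX. The Il4 run has the letters of E-box factors only, and the Epx run none of the 7. Over all 32851 RefSeq promoters, 16.6% held the GATA letters, 17.6% the E-box letters, 9.56% those of C/EBP, and 4.40% those of RUNX.

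Acetylated regions at these genes were most numerous in WT cells. The WT list held 35 H3K27ac peaks in the windows, the Ep300Δ/Δ list 9, the Tet2-/- list 13, and the Ep300Δ/ΔTet2-/- list 9. The peaks covered 15.8 kb in WT, 2.79 kb in Ep300Δ/Δ, 8.11 kb in Tet2-/-, and 4.98 kb in Ep300Δ/ΔTet2-/- cells. All 3 mutant lists thus held fewer peaks than WT at these genes, with -74.3% in Ep300Δ/Δ, -62.9% in Tet2-/-, and -74.3% in Ep300Δ/ΔTet2-/- cells. Over the whole lists the same changes were -23.4%, -17.3%, and -38.2%. Peaks that overlapped H3K4me1 outside promoters, the study's definition of putative enhancers, numbered 15, 3, 6, and 3 in the order WT, Ep300Δ/Δ, Tet2-/-, and Ep300Δ/ΔTet2-/-. Over the whole lists they numbered 9505, 5093, 6548, and 3720, which is -46.4% in Ep300Δ/Δ, -31.1% in Tet2-/-, and -60.9% in Ep300Δ/ΔTet2-/- cells, so fewer putative enhancers were found genome-wide as well.

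To compare 2 lists, their peaks were merged, and a merged region was called lost when no peak of the second list overlapped it and gained when no peak of the first did. From WT to Ep300Δ/Δ, 28 of the 35 regions at these genes were lost (80.0%, 95% exact Clopper-Pearson interval 63.1% to 91.6%), against 39.7% of all regions, and 0 of 7 were gained (12.8% of all regions). From WT to Tet2-/-, 26 of 35 were lost (74.3%, 56.7% to 87.5%), against 35.6% of all regions, and 3 of 12 were gained (25%, beside 20.3%). From Tet2-/- to Ep300Δ/ΔTet2-/-, 5 of 12 were lost (41.7%, 15.2% to 72.3%), against 37.8% of all regions, and 2 of 9 were gained (22.2%, beside 14.99%). From Ep300Δ/Δ to Ep300Δ/ΔTet2-/-, 1 of 7 was lost (14.3%, 0.361% to 57.9%), beside 31.2% of all regions. In that step 3 of 9 were gained (33.3%, beside 18.5%). The intervals of the gained shares are wide at these numbers of regions. The share lost when Ep300 was deleted therefore lay above that of all regions in the WT comparison, and its interval held the share of all regions in the Tet2-/- comparison. The intervals cover counting error of regions only, since neighboring peaks of 1 library are not independent and peak lists do not tell how deeply each library was sequenced, so depth is unknown. The comparisons of WT with Ep300Δ/Δ and with Tet2-/- share the WT library.

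Most of the acetylated regions in WT were weak ones. When the WT regions were ranked by fold enrichment over H3 and cut into 4 bins of equal size, 16 of the 35 regions at these genes lay in the weakest bin and 4 in the strongest. In Ep300Δ/Δ, 16 of 16 regions of the weakest bin were lost (76.0% over all regions), 9 of 10 of the next (57.2%), 3 of 5 of the one after (24.1%), and 0 of 4 of the strongest (1.56%). Weighted to the strengths of the 35 regions, the share lost over all regions was 54.7%, which lies below the interval of these genes. For the step from WT to Tet2-/- the weighted share was 49.5%, also below the interval, and for Tet2-/- to Ep300Δ/ΔTet2-/- it was 40.8%, within it. With all lists cut to the strongest 18327 peaks by q value, 10 WT regions remained at these genes, of which 4 were lost in Ep300Δ/Δ (40.0%, against 24.1% of all regions) and 4 in Tet2-/- (40.0%, against 22.3%). The interval of 4 of 10 runs from 12.2% to 73.8% and holds both shares of all regions, so at equal list length neither WT comparison stood apart from all regions beyond counting error.

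**Figure D1:**
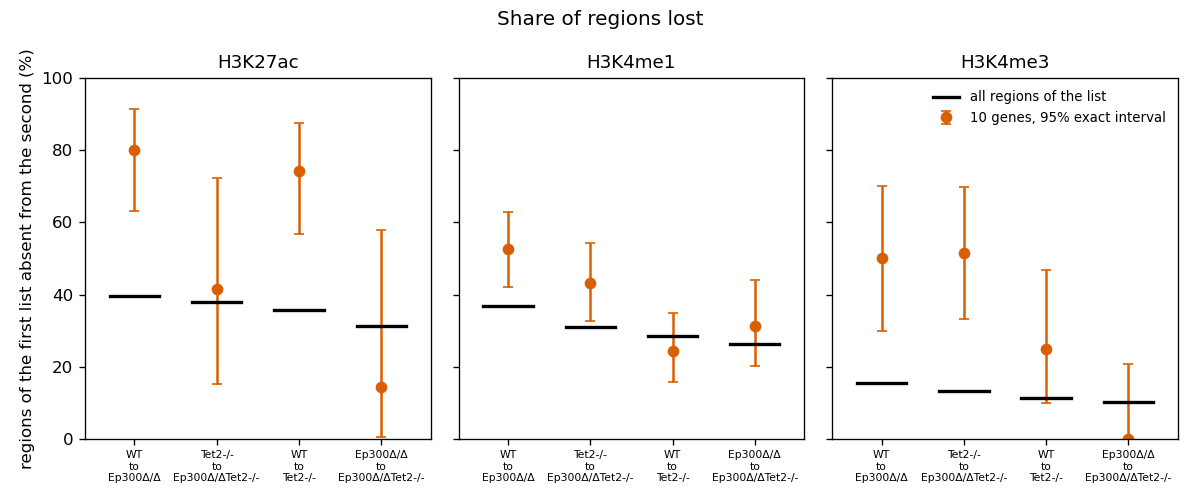
Share of the merged regions of the first list that had no peak in the second list, in percent, for 4 comparisons and 3 marks. Points are the regions of the 10 genes with 95% exact intervals (counting error only) and black bars are all regions of the list, with H3K27ac at 80.0% against 39.7% from WT to Ep300Δ/Δ and at 41.7% against 37.8% from Tet2-/- to Ep300Δ/ΔTet2-/-.

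Of the 39 H3K27ac regions merged over the 4 lists, 25 were in the WT list alone (64.1%, beside 21.1% of all 35252 merged regions) and 6 were in all 4 lists (15.4%, beside 35.5%). None was in the Ep300Δ/Δ list alone, where 3.82% of all merged regions were. The 6 kept regions were the Il4 promoter, the region upstream of Prg2, the region downstream of Ms4a2, and 3 regions at the promoters of neighbors, 2 at Ctsg and 1 at Mks1. Of the 28 regions lost from WT to Ep300Δ/Δ, 19 overlapped H3K4me1 in WT and 11 in Ep300Δ/Δ cells. Over all lost regions these shares were 82.1% and 73.5%.

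The protease genes differed from each other in acetylation. Mcpt8, a granule protease of basophils, had 10 H3K27ac peaks in WT, 3 in Ep300Δ/Δ, 4 in Tet2-/-, and 3 in Ep300Δ/ΔTet2-/- cells. Only part of them lay at Mcpt8 itself (chr14:56082166-56085273, minus strand). Its own promoter carried 5 peaks in WT (2.88-fold to 5.82-fold over H3), 0 in Ep300Δ/Δ, 1 in Tet2-/- (4.58-fold), and 1 in Ep300Δ/ΔTet2-/- cells (4.28-fold). The other peaks lay -19.4 to -14.1 kb from the start, at the promoter of Ctsg, which encodes the neutrophil and monocyte protease cathepsin G. The strongest of these spanned 2202 bp at 21.1-fold in WT, the 91.1st percentile of its list. At the Ctsg promoter a peak was present in all 4 genotypes. H3K4me3 at the Mcpt8 promoter was found in Tet2-/- cells only, as peaks of 676 and 428 bp at 4.50-fold and 3.49-fold (percentiles 13.2 and 4.78 of that list).

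Cpa3, the carboxypeptidase of mast cells and basophils (chr3:20215620-20242181, minus strand), had no H3K27ac peak in any list, as did 34% of the protein-coding genes. Its promoter carried H3K4me3 in Tet2-/- cells only, as 1 peak of 288 bp at 8.77-fold. H3K4me1 peaks numbered 4 in WT, 1 in Ep300Δ/Δ, 4 in Tet2-/-, and 1 in Ep300Δ/ΔTet2-/- cells. H3K4me1 at the Cpa3 promoter itself was made up of 2 peaks in WT, 2 in Tet2-/-, and 0 in both genotypes with Ep300 deleted.

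The IgE receptor genes differed in acetylation. Fcer1a (chr1:173221284-173227214, minus strand) had no H3K27ac peak in any list. H3K4me3 covered its start in Tet2-/- cells alone, as a 665-bp peak at 18.5-fold (the 56.7th percentile of its list) with a second of 463 bp in an intron at 7.44-fold. WT, Ep300Δ/Δ, and Ep300Δ/ΔTet2-/- cells had no H3K4me3 peak in the whole window. H3K4me1 peaks numbered 0 in WT, 0 in Ep300Δ/Δ, 2 in Tet2-/-, and 1 in Ep300Δ/ΔTet2-/- cells. Of the 2 H3K4me1 peaks in Tet2-/- cells, 1 lay at the promoter of the neighbor Olfr1404. The peak in Ep300Δ/ΔTet2-/- cells was 213 bp at 4.76-fold. The Fcer1a window was thus marked in the 2 genotypes without Tet2 and in neither of the others, but those 2 genotypes shared no region.

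Ms4a2 (chr19:11615523-11623719, minus strand) had 5 H3K27ac peaks in WT, 1 in Ep300Δ/Δ, 1 in Tet2-/-, and 3 in Ep300Δ/ΔTet2-/- cells. Their covered length exceeded that of 68.7% of protein-coding genes in WT and 64.5% in Ep300Δ/ΔTet2-/- cells, against 42.8% in Ep300Δ/Δ and 43.7% in Tet2-/- cells. None lay at its own promoter, and 1 peak each in WT and Ep300Δ/ΔTet2-/- cells lay at the promoter of the neighbor Ms4a3. The region shared by all 4 lists began 10.7 kb from the start, past the end of the gene, at 9.01-fold in WT, 4.47-fold in Ep300Δ/Δ, 4.88-fold in Tet2-/-, and 6.55-fold in Ep300Δ/ΔTet2-/- cells. Its sequence is the first of the windows given above. The same stretch carried strong H3K4me1. A 410-bp H3K4me1 peak beginning 11.7 kb from the start reached 15.9-fold in Tet2-/- cells, the 99.8th percentile of that list, and the strongest H3K4me1 peak of the window was at the 88.6th percentile in WT, the 93.6th in Ep300Δ/Δ, and the 95.7th in Ep300Δ/ΔTet2-/- cells. At the Ms4a2 promoter, H3K4me3 was a peak of 243 bp in WT (3.68-fold), 219 bp in Tet2-/- (5.76-fold), and 190 bp in Ep300Δ/ΔTet2-/- cells (3.64-fold), and absent in Ep300Δ/Δ. The remaining H3K4me3 upstream lay at the promoter of Ms4a3, a neighbor expressed in granulocyte progenitors, in all 4 genotypes.

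**Figure D2:**
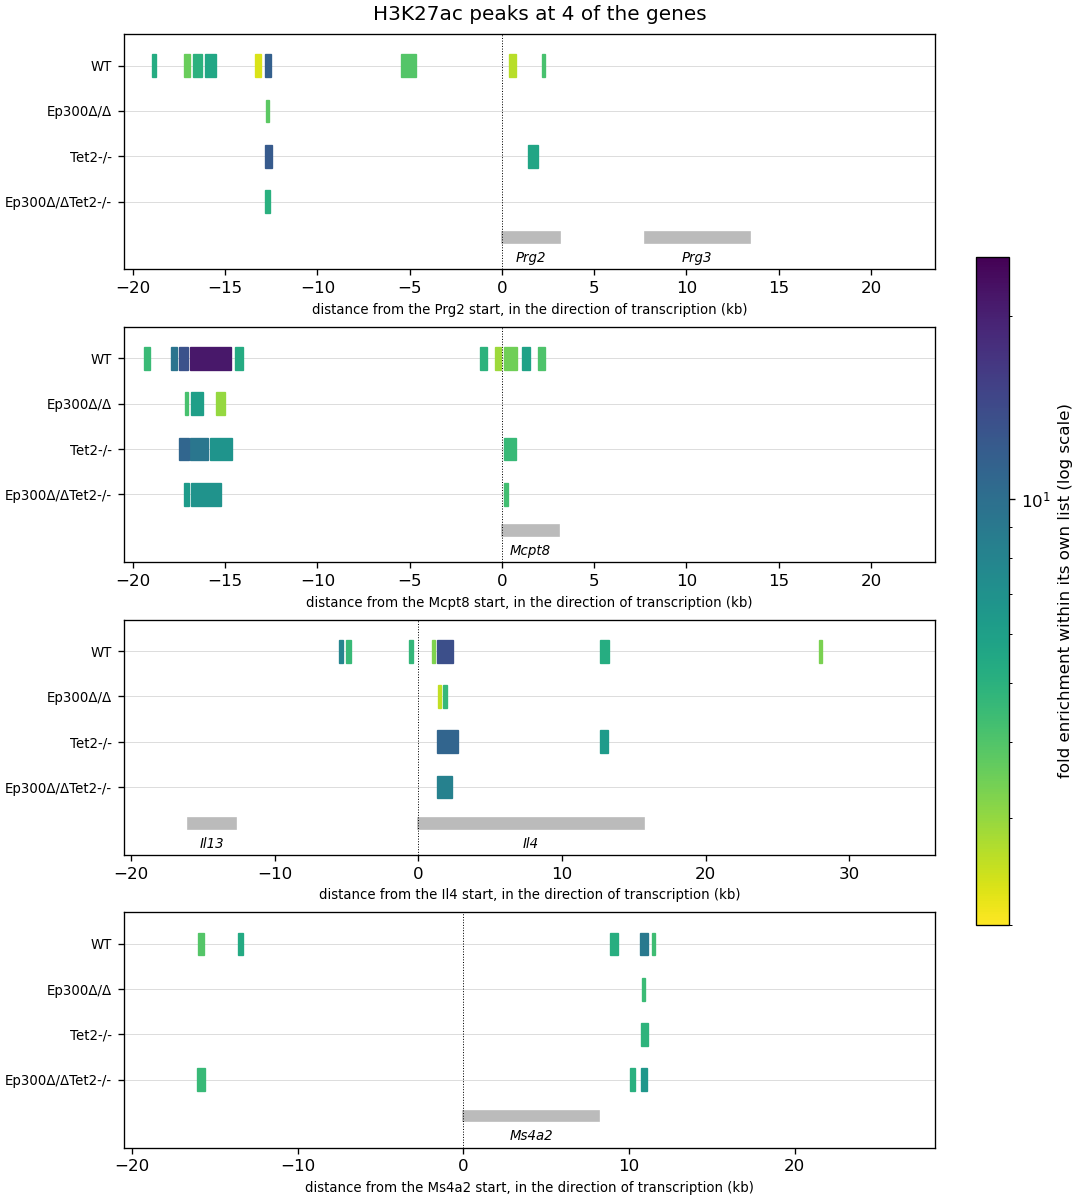
H3K27ac peaks at Prg2 with Prg3, Mcpt8, Il4 with Il13, and Ms4a2, by distance in kb from the start of the named gene in the direction of transcription. Each box is a peak of 1 library, colored by its fold enrichment over H3 within its own list (log scale), and gray bars are gene bodies, with 9 peaks in the Prg2 window in WT and a single region near -12.9 kb present in all 4 genotypes.

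The eosinophil granule genes carried less H3K4me3 length in both genotypes with Ep300 deleted, and Prg2 and Prg3 had fewer H3K27ac peaks there. Prg2, the major basic protein of eosinophils (chr2:84980461-84983632, plus strand), had 9 H3K27ac peaks in WT, 1 in Ep300Δ/Δ, 2 in Tet2-/-, and 1 in Ep300Δ/ΔTet2-/- cells. The region near -12.9 kb, whose sequence is given above, was in all 4 lists at 11.6-fold in WT, 3.80-fold in Ep300Δ/Δ, 12.2-fold in Tet2-/-, and 5.05-fold in Ep300Δ/ΔTet2-/- cells. Its rank within the list was the 75.5th percentile in WT and the 78.1st in Tet2-/- cells, and the 17.9th in Ep300Δ/Δ and the 27.4th in Ep300Δ/ΔTet2-/- cells. These are ranks in lists of different length. In lists cut to equal length, a choice made after seeing the data, they were the 60.4th percentile in WT, the 3.39th in Ep300Δ/Δ, the 70.7th in Tet2-/-, and the 27.4th in Ep300Δ/ΔTet2-/- cells, in the same order from 1 library each. In WT, 5 further peaks lay between -19.0 and -13.1 kb, at 2.3-fold to 5.56-fold, and none of them was in another list. H3K4me1 at the region near -12.9 kb was in all 4 lists and reached 12.2-fold in Tet2-/- cells, the 98.3rd percentile.

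Prg3, a close relative of Prg2 located downstream of it (chr2:84988215-84993886, plus strand), had 4 H3K27ac peaks in WT, 0 in Ep300Δ/Δ, 1 in Tet2-/-, and 0 in Ep300Δ/ΔTet2-/- cells. All but 1 of these lay upstream of Prg3, at or before Prg2. The exception, in an intron of P2rx3 at 7.71-fold, was in the WT list alone. The Prg3 promoter carried no H3K27ac peak in any genotype.

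H3K4me3 extended over both genes. In WT, a peak of 1176 bp and a peak of 2469 bp lay at the Prg2 promoter. In Tet2-/- cells 1 peak of 4022 bp covered the same stretch at 40.8-fold, the 88.6th percentile of its list, and its width was at the 99.2nd percentile. In Ep300Δ/Δ the peaks measured 876 and 1839 bp, and in Ep300Δ/ΔTet2-/- cells 1055 and 1909 bp with a further one of 212 bp. At the Prg3 start, a peak of 2461 bp in WT (31.5-fold) and 2496 bp in Tet2-/- cells (34.9-fold) was replaced by 3 short peaks of 219, 215, and 713 bp in Ep300Δ/Δ and of 322, 290, and 1011 bp in Ep300Δ/ΔTet2-/- cells. In the Prg2 window H3K4me3 covered 8.06 kb in WT, 3.86 kb in Ep300Δ/Δ, 10.3 kb in Tet2-/-, and 5.19 kb in Ep300Δ/ΔTet2-/- cells. The covered length was longest in Tet2-/- and shortest in Ep300Δ/Δ cells.

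Epx, the eosinophil peroxidase (chr11:87864000-87875536, minus strand), had broad H3K4me3 but no H3K27ac peak of its own. The only H3K27ac peak in its window, present in all 4 lists, was at the promoter of Mks1, a cilium gene, 21.7 to 22.4 kb from the Epx start. H3K4me3 at Epx formed 2 adjoining peaks of 2478 and 4234 bp in WT, 2024 and 2099 bp in Ep300Δ/Δ, 2545 and 4167 bp in Tet2-/-, and 2230 and 2714 bp in Ep300Δ/ΔTet2-/- cells. The wider of the 2 was at the 99.2nd percentile of width in WT and the 99.3rd in Tet2-/- cells, against the 88.1st in Ep300Δ/Δ and the 96.3rd in Ep300Δ/ΔTet2-/- cells. H3K4me1 covered 6.26 kb of the window in WT, 0.828 kb in Ep300Δ/Δ, 5.78 kb in Tet2-/-, and 0.716 kb in Ep300Δ/ΔTet2-/- cells. Both genotypes with Ep300 deleted had little H3K4me1 in this window. In Ep300Δ/Δ all of it lay at the Mks1 promoter, as did 1 of the 2 peaks in Ep300Δ/ΔTet2-/- cells. Most of the H3K4me1 in WT and Tet2-/- cells lay upstream of Epx. There, a 1229-bp peak from -6.36 kb in WT and a 2298-bp peak from -6.81 kb in Tet2-/- cells had a counterpart of 387 bp in Ep300Δ/ΔTet2-/- and none in Ep300Δ/Δ cells.

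**Figure D3:**
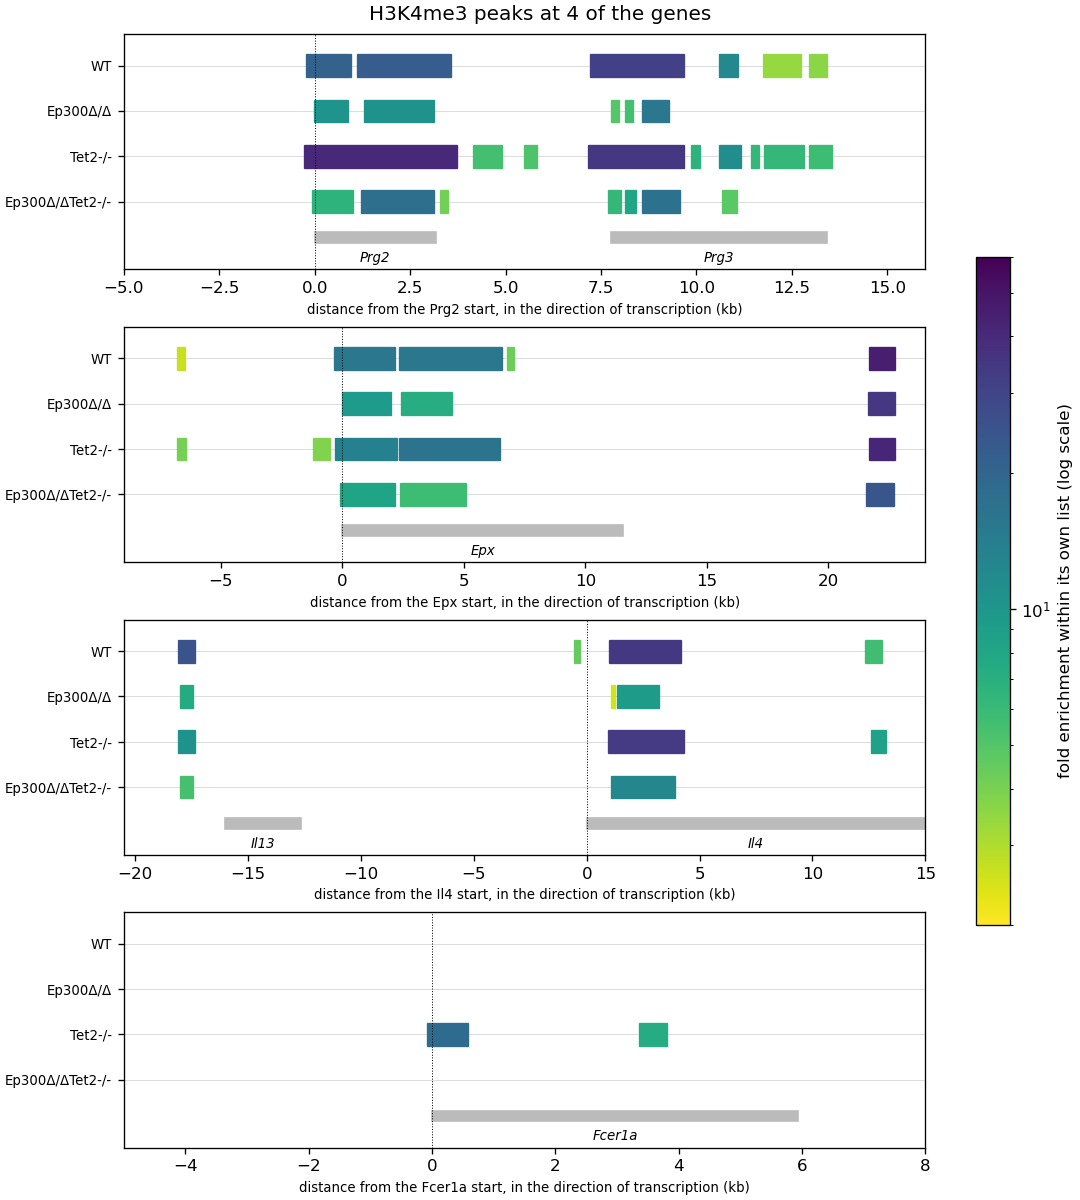
H3K4me3 peaks at Prg2 with Prg3, Epx, Il4 with Il13, and Fcer1a, by distance in kb from the start of the named gene in the direction of transcription. Each box is a peak of 1 library, colored by its fold enrichment over H3 within its own list (log scale), with a 4022-bp peak at Prg2 in Tet2-/- cells and H3K4me3 at Fcer1a in Tet2-/- cells only.

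Of the 2 cytokine genes, Il4 (chr11:53602982-53618669, minus strand) carried the acetylation. Its promoter held an H3K27ac region in all 4 lists, with a peak of 1116 bp at 13.6-fold in WT, 1440 bp at 11.1-fold in Tet2-/-, and 997 bp at 8.32-fold in Ep300Δ/ΔTet2-/- cells. In Ep300Δ/Δ cells it was split into peaks of 198 and 297 bp at 2.53-fold and 4.62-fold. The rank of its strongest peak was the 80.9th percentile in WT, the 32.6th in Ep300Δ/Δ, the 74.9th in Tet2-/-, and the 60.6th in Ep300Δ/ΔTet2-/- cells. In lists cut to equal length the ranks were 69.1, 16.5, 66.3, and 60.6 in the same order of genotypes, and the lowest was again that of Ep300Δ/Δ cells. So cut, the 2 Ctsg regions and the Ms4a2 region also ranked lower in Ep300Δ/Δ than in WT. The Mks1 region ranked higher, at 54.6 in Ep300Δ/Δ against 23.2 in WT. The Ms4a2 region had no peak in the cut Tet2-/- list. The Il4 promoter region lay 1.31 to 2.75 kb inside the longest annotated transcript, over the 2 transcript starts farther downstream. An intronic peak at 12.6 to 13.2 kb was in WT and Tet2-/- cells, at 5.24-fold and 6.29-fold, and in neither genotype with Ep300 deleted, whereas H3K4me1 lay there in all 4. Upstream, peaks at -5.49 and -5.04 kb were in WT only.

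H3K4me3 at the Il4 promoter measured 3193 bp in WT, 1844 bp in Ep300Δ/Δ, 3362 bp in Tet2-/-, and 2838 bp in Ep300Δ/ΔTet2-/- cells. A separate peak of 274 bp (4.55-fold) lay upstream of the start in WT only. In Ep300Δ/Δ cells the main region held a further peak of 198 bp (2.53-fold), within the span of the Tet2-/- peak. Il13 (chr11:53631324-53634702, minus strand) had no H3K27ac at its own promoter in any genotype, and its H3K4me3 was a peak between -2.05 and -1.31 kb, of 729 bp in WT, 582 bp in Ep300Δ/Δ, 732 bp in Tet2-/-, and 576 bp in Ep300Δ/ΔTet2-/- cells. H3K4me1 was extensive over the cytokine genes. In the Il4 window it covered 18.8 kb in WT, 9.77 kb in Ep300Δ/Δ, 22.2 kb in Tet2-/-, and 12.4 kb in Ep300Δ/ΔTet2-/- cells, with the genotypes that kept Ep300 above those that did not. At Il13 it covered 14.8, 7.60, 16.8, and 9.16 kb in the same order.

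Mitf, the microphthalmia-associated transcription factor (chr6:97807052-98021349, plus strand), kept its main promoter mark in every genotype. Its 5′-most start carried H3K4me3 of 1685 bp in WT, 1684 bp in Ep300Δ/Δ, 1743 bp in Tet2-/-, and 1700 bp in Ep300Δ/ΔTet2-/- cells. The width was thus close to equal in the 4 libraries. H3K27ac was intronic and sparse, with 2 peaks in WT, 1 in Ep300Δ/Δ, 2 in Tet2-/-, and 0 in Ep300Δ/ΔTet2-/- cells. The intronic peak at 13.4 kb, whose sequence is given above, was in WT, Ep300Δ/Δ, and Tet2-/- cells at 5.47-fold, 4.93-fold, and 5.28-fold. A weak H3K4me3 peak at an internal start 122 to 123 kb into the gene was in all lists but WT, at 3.07-fold to 4.69-fold. H3K4me1 numbered 18 peaks in WT, 23 in Ep300Δ/Δ, 22 in Tet2-/-, and 18 in Ep300Δ/ΔTet2-/- cells.

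**Figure D4:**
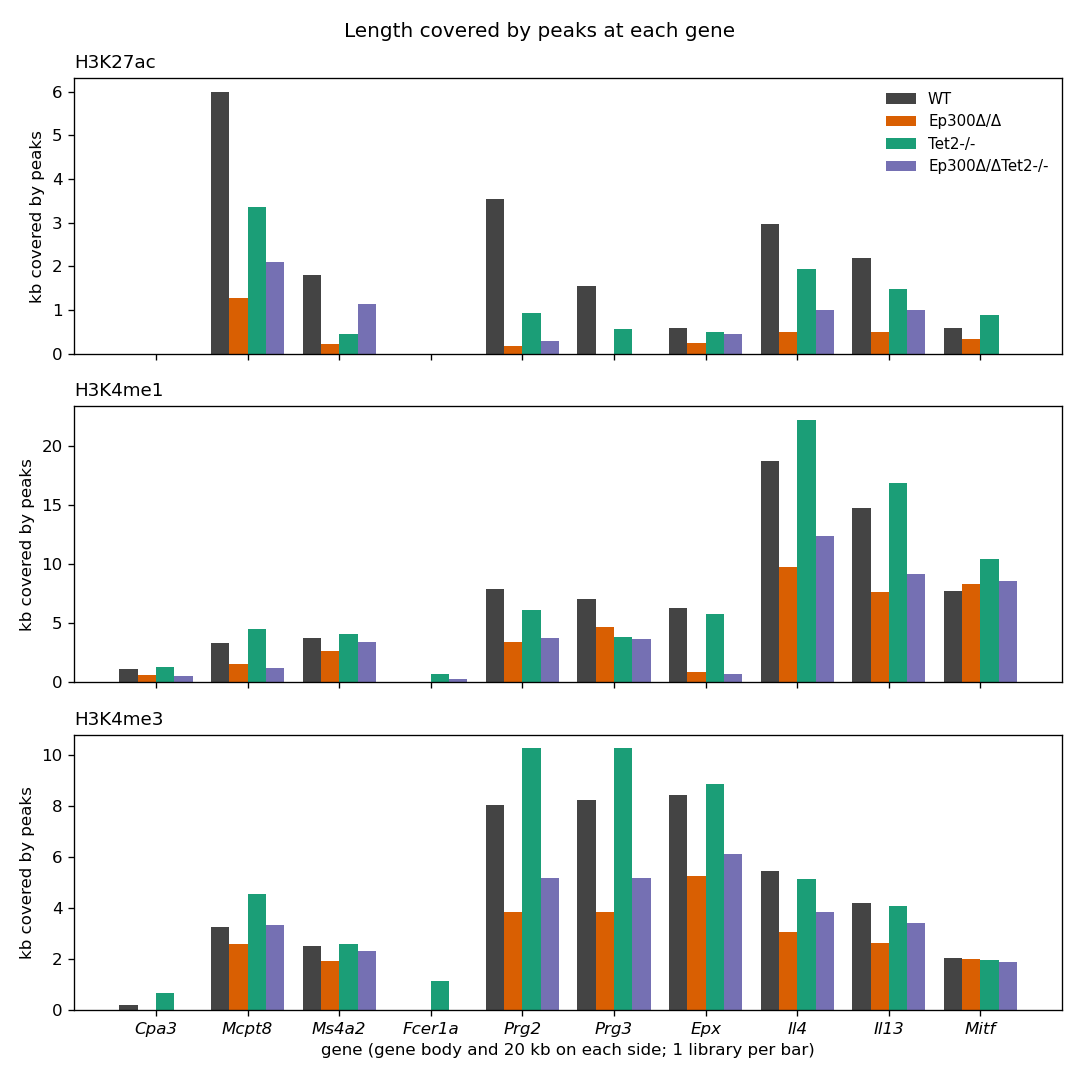
Length in kb covered by H3K27ac, H3K4me1, and H3K4me3 peaks in the window of each of the 10 genes, with 1 bar per genotype and 1 library per bar. H3K27ac at Mcpt8 covers 6 kb in WT, part of it at the Ctsg promoter, and 1.28 kb in Ep300Δ/Δ cells, all of it there. H3K4me1 in the Epx window covers 6.26 kb in WT and 0.828 kb in Ep300Δ/Δ cells, the latter all at the Mks1 promoter.

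Within 20 kb, H3K27ac was present at 8 of the 10 genes in WT (62.5% of all protein-coding genes), 7 in Ep300Δ/Δ (59.1%), 8 in Tet2-/- (61.8%), and 6 in Ep300Δ/ΔTet2-/- cells (58.6%). Presence of the mark thus differed from the background by few genes, and the larger differences were in the number and length of peaks. Windows also count peaks at neighbors. In Ep300Δ/Δ the peaks of Epx lay only at the Mks1 promoter, those of Mcpt8 at the Ctsg promoter, and those of Il13 at the Il4 promoter. From WT to Ep300Δ/Δ, 7 of the 8 genes with an H3K27ac peak in either list had fewer peaks, all but Epx, against 43.4% of the genes so compared, and 0 had more (20.9%). Covered length was at least 2-fold lower in 7 of 8, all but Mitf, against 24.7%. At Epx the peak concerned was that of the Mks1 promoter, the only one in its window. From Tet2-/- to Ep300Δ/ΔTet2-/-, 6 of 8 had fewer H3K27ac peaks (47.7%), Ms4a2 had more (15.3%), and Prg2, Prg3, and Mitf had at least 2-fold lower length, 3 of 8 (16.9%), while Ms4a2 had at least 2-fold higher length, 1 of 8 (4.19%). The Ms4a2 length in Ep300Δ/ΔTet2-/- cells included a 487-bp peak at the Ms4a3 promoter. From WT to Tet2-/-, 6 of 8 had fewer H3K27ac peaks (41.6%) and 0 had more (22.5%). Since windows overlap within the list, these genes are not independent of each other.

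At their own promoters, 3 of 10 genes carried H3K27ac in WT (Mcpt8, Prg2, and Il4), 1 in Ep300Δ/Δ (Il4), 3 in Tet2-/- (Mcpt8, Prg2, and Il4), and 2 in Ep300Δ/ΔTet2-/- cells (Mcpt8 and Il4). Over all genes the shares were 47.3%, 44.9%, 46.4%, and 43.1%. With 10 genes, the difference from these shares was not tested.

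H3K4me1 peaks at these genes were fewer in both genotypes with Ep300 deleted. The windows held 99 H3K4me1 peaks in WT, 64 in Ep300Δ/Δ, 89 in Tet2-/-, and 67 in Ep300Δ/ΔTet2-/- cells. From WT to Ep300Δ/Δ, 50 of 95 regions were lost (52.6%, 42.1% to 63.0%) against 36.7% of all regions, and 17 of 62 were gained (27.4%, beside 24.1%). From Tet2-/- to Ep300Δ/ΔTet2-/-, 38 of 88 were lost (43.2%, 32.7% to 54.2%) against 31.1%, and 11 of 61 were gained (18.0%, beside 23.4%). Both intervals of the lost shares lay above the share of all regions. Without flanking sequence both held it, at 20 of 38 (35.8% to 69.0%) and 15 of 37 (24.8% to 57.9%). With −log10 q of at least 5 the first held it (49.8% to 76.9%, against 51.0%), and the second did with 50 kb of flank (29.1% to 47.2%) and without promoters of neighboring genes (30.4% to 52.8%). From WT to Tet2-/-, 21 of 86 were lost (24.4%) and 21 gained, with the lost share near the 28.6% lost at all regions. The gained regions were 24.4% of the Tet2-/- regions, beside 26.8% over all regions. From Ep300Δ/Δ to Ep300Δ/ΔTet2-/-, 20 of 64 were lost (31.25%, beside 26.2%) and 20 of 64 gained (31.25%, beside 29.5%).

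By gene, fewer H3K4me1 peaks were found from WT to Ep300Δ/Δ in 8 of 9 (53.6% of genes) and more in Mitf, 1 of 9 (28.6%). Covered length was at least 2-fold lower in Prg2, Epx, and Mcpt8, 3 of 9 (9.75%). From Tet2-/- to Ep300Δ/ΔTet2-/-, 7 of 10 had fewer (39.5%), Prg3 had more, 1 of 10 (40.1%), and Fcer1a, Cpa3, Epx, and Mcpt8 had at least 2-fold lower length, 4 of 10 (8.58%). Epx and Mcpt8 thus passed this fold in both comparisons. From WT to Tet2-/-, 5 of 10 had fewer (53.1%) and 3 had more (28.2%). H3K4me1 was present within 20 kb at 9, 9, 10, and 10 genes in the order WT, Ep300Δ/Δ, Tet2-/-, and Ep300Δ/ΔTet2-/- (74.4%, 74.5%, 74.6%, and 75.6% of all genes) and at 8, 6, 8, and 7 own promoters (62%, 62.2%, 61.3%, and 62.7%).

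At promoters, H3K4me3 was found at more of these genes in the Tet2-/- library than in the other 3. All 10 promoters carried an H3K4me3 peak in Tet2-/- cells (62.3% of all genes), against 7 in WT (61.9%), 6 in Ep300Δ/Δ (63.1%), and 7 in Ep300Δ/ΔTet2-/- cells (62.6%). The 3 present in Tet2-/- and not in WT cells were Cpa3, Mcpt8, and Fcer1a, genes of basophils and mast cells, and none of the 3 had the mark in Ep300Δ/ΔTet2-/- cells. Prg2, Prg3, Epx, Il4, Il13, and Mitf, 6 of 10, had it in all 4 genotypes (60.1%). Within 20 kb the mark was present at 9, 8, 10, and 8 genes in the order WT, Ep300Δ/Δ, Tet2-/-, and Ep300Δ/ΔTet2-/- (72%, 72.9%, 72.6%, and 73%). Of 37 merged H3K4me3 regions, 11 were in the Tet2-/- list alone (29.7%, beside 5.11% of all merged regions). These counts and both comparisons with Tet2-/- cells below rest on the same Tet2-/- library, the longest H3K4me3 list at 27807 peaks. With all lists cut to the strongest 25012 peaks by q value, chosen after seeing the data, 10 promoters carried the mark in Tet2-/- and 6 in each other genotype, and 12 of 28 regions were gained from WT to Tet2-/- (42.9%, 24.5% to 62.8%, beside 9.73% of all regions). Whether this 1 library stands for its genotype was not tested.

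From Tet2-/- to Ep300Δ/ΔTet2-/-, 16 of 31 H3K4me3 regions were lost (51.6%, 33.1% to 69.8%) against 13.3% of all regions, and 0 of 15 were gained (9.45% of all regions). Weighted to the strengths of the 31 regions, the share over all regions was 17.7%, below the interval. Fewer peaks were found in that step in 8 of 10 genes (23.3%) and more in 0 (21.4%), and Fcer1a and Cpa3, 2 of 10, had at least 2-fold lower length (2.45%). From WT to Ep300Δ/Δ, 13 of 26 regions were lost (50%, 29.9% to 70.1%) against 15.4%, or 24.1% when weighted, and 1 of 14 was gained (7.14%, beside 11.1%). Fewer peaks were found in 6 of 9 genes (27.3%) and more in 0 (21.2%), and Prg2, Prg3, and Cpa3, 3 of 9, had at least 2-fold lower length (2.54%). From WT to Tet2-/-, 13 of 31 H3K4me3 regions were gained (41.9%, 24.5% to 60.9%, beside 13.6% of all regions) and 6 of 24 were lost (25%, 9.77% to 46.7%, beside 11.1%), with 2 of 10 genes having fewer peaks (19.4%) and 5 more (26.9%). From Ep300Δ/Δ to Ep300Δ/ΔTet2-/-, 0 of 16 were lost (10.3% of all regions) and 3 of 19 were gained (15.8%, beside 13.2%). H3K4me3 regions at these genes were thus lost in both comparisons that delete Ep300, most of them weak. Weakest bin first, WT to Ep300Δ/Δ lost 11 of 11, 2 of 7, 0 of 6, and 0 of 2. Over all regions these shares were 49.4%, 11.9%, 0.209%, and 0%. From Tet2-/- to Ep300Δ/ΔTet2-/- the bins lost 8 of 10, 7 of 12, 1 of 5, and 0 of 4. The shares of all regions there were 44.0%, 8.97%, 0.0893%, and 0%. Of these 2 comparisons, only the one from Tet2-/- was rerun under the alternative settings.

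Of 52 other genes of these lineages, 34 had promoter H3K27ac in WT, 28 in Ep300Δ/Δ, 31 in Tet2-/-, and 25 in Ep300Δ/ΔTet2-/- cells. Ms4a3 and Mcpt4, which are among them, lie in the windows of Ms4a2 and Mcpt8. The Ms4a3 promoter peaks were thus also counted for Ms4a2. From WT to Ep300Δ/Δ, 6 of the 34 had lost the peak, beside 7.96% of all protein-coding genes with one in WT, and from Tet2-/- to Ep300Δ/ΔTet2-/- it was 7 of 31, beside 10.2%. These differences were not tested. Among 9 transcription factors the counts were 9, 8, 8, and 7. Promoter H3K27ac was absent at Gata1, a GATA factor that eosinophils and mast cells require, in Ep300Δ/Δ cells only. It was absent at Gata2 in Ep300Δ/ΔTet2-/- cells only, and at Cebpa in both genotypes without Tet2. Among 16 receptor and signaling genes the counts were 14, 10, 11, and 10. Il1rl1, the receptor for IL-33, had the peak in WT and Tet2-/- cells and in neither genotype with Ep300 deleted. Ccr3, the eotaxin receptor of eosinophils, and Cd200r3, a receptor of basophils and mast cells, had it in WT cells only, Ms4a3 in WT and Ep300Δ/ΔTet2-/- cells, and Csf2rb2 in all but Ep300Δ/ΔTet2-/- cells. Among 14 genes for granule contents the counts were 5, 5, 5, and 3, with Slc18a2, the vesicular amine transporter, absent in Ep300Δ/ΔTet2-/- cells, Gzmb present in WT and Ep300Δ/Δ cells, and Mcpt2 present in Tet2-/- cells only. Among 6 lipid mediator genes the counts were 3, 3, 4, and 3, with Hpgds added in Tet2-/- cells. Among 7 cytokine genes the counts were 3, 2, 3, and 2, with Il6 present in WT and Tet2-/- cells only. Promoter H3K4me3 was found at 39, 37, 40, and 38 of the 52 (61.9%, 63.1%, 62.3%, and 62.6% of all protein-coding genes). It was lost at 3 of 39 from WT to Ep300Δ/Δ, beside 1.41% of all genes with the mark, and at 2 of 40 from Tet2-/- to Ep300Δ/ΔTet2-/-, beside 1.51%.

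Markers of other cells that the Lin- fraction could hold were counted in the same way. Promoter H3K27ac, in the order WT, Ep300Δ/Δ, Tet2-/-, and Ep300Δ/ΔTet2-/-, was found at 5, 4, 4, and 3 of 6 neutrophil genes, 3, 3, 3, and 2 of 3 monocyte genes, 3, 3, 3, and 2 of 3 erythroid genes, 2, 3, 3, and 3 of 3 megakaryocyte genes, 1, 0, 0, and 0 of 4 B cell genes, 1, 1, 1, and 1 of 4 T cell genes, and 4, 4, 3, and 5 of 5 stem and progenitor genes. At the 4 B cell genes, promoter H3K4me3 was found at 3, 2, 1, and 0. Their part in the results was not tested. In bulk chromatin, fewer cells of a type and less modification per cell cannot be told apart. Whole lists held 29659 H3K27ac peaks in WT, 22727 in Ep300Δ/Δ, 24539 in Tet2-/-, and 18327 in Ep300Δ/ΔTet2-/- cells, and 7.17% of the Ep300Δ/Δ peaks had a q value above 0.05, against at most 0.900% in the other 3.

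By the length covered in all 12 lists, other genes came near the 3 members with the most H3K27ac in WT. For Mcpt8 the nearest were Tlr6, Dbr1, and Ing3, at Euclidean distances of 3.69, 3.72, and 3.78 kb, with a median of 10.7 kb over all genes. For Prg2 they were Uroc1, Renbp, and Fcgr3, at 4.35, 5.18, and 5.20 kb (median 15.2 kb). For Il4 they were Gcnt1, Arsb, and Dtnbp1, at 3.56, 3.71, and 3.80 kb (median 29.9 kb).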

How the data were processed

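Lin- cells of 4 genotypes were profiled by ChIP-Seq, with 1 library per genotype and mark. Adapters were cut by the authors with Cutadapt 1.15, BWA 0.7.13 placed the reads on mm10, Picard took out duplicates, and the authors called narrow peaks with MACS2 2.1.1.20160309 against H3. Peaks had to recur in pseudo-replicates (stated threshold q = 0.05). For each peak the deposited lists hold a score (not used), fold enrichment over H3, and both p-value and q-value as −log10. Folds were ranked within a list, and folds printed side by side for different lists are the authors' own values, not scaled to each other. An alternative applied 1 threshold of −log10 q to all lists. Some deposited peaks have q values above 0.05. Numbers of peaks move with depth and yield, which the authors' peak lists do not give, and the methods describe no scaling of the lists by the spike-in. Labels call the libraries single-end and the methods paired-end. The marks of the H3K4 libraries were read from the antibodies.

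Genes came from GENCODE on GRCm38. Windows were the gene body and 20 kb on each side, promoters 3 kb on either side of any transcript start, and shared regions those with an overlap of at least 1 bp. Percentiles are ranks of fold or width within 1 list. Shares have exact Clopper-Pearson 95% intervals. All 10 members are named. Other genes are named where their promoter peak differs between genotypes, where their promoter lies in a member's window, or for likeness in covered length. Members, lists, and motifs were chosen with earlier results of these data known. Planted lost and gained counts were recovered in 10 of 10 simulated pairs of lists, and counts equaled those of bedtools 2.31.1 in 12 of 12 comparisons. Intervals used scipy 1.17.1 and sequences pysam 0.24.0, under Python 3.11.15 with pandas 2.3.3. Figures were drawn with matplotlib 3.10.9.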

Additional observations from a re-analysis of the deposited data

Results flagged for a closer look

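At 3 of 30 combinations of gene and mark the number of peaks within 20 kb moved in opposite directions when Ep300 was deleted on the 2 backgrounds. Over all protein-coding genes with a peak, such opposite moves were found for 12.7% with H3K27ac (1 of 8 here), 26.3% with H3K4me1 (2 of 10), and 10.9% with H3K4me3 (0 of 10), so the counts here were near or below the background. Each is 1 library against 1 library, and the difference between the backgrounds was not tested. Ms4a2 H3K27ac peaks went from 5 to 1 in cells with Tet2 (-4) and from 1 to 3 in cells without it (2). Prg3 H3K4me1 peaks went from 13 to 7 (-6) and from 6 to 8 (2). Mitf H3K4me1 peaks went from 18 to 23 (5) and from 22 to 18 (-4). At Prg3 the H3K4me1 length did not show this opposition, with 7.04 kb in WT, 4.65 kb in Ep300Δ/Δ, 3.83 kb in Tet2-/-, and 3.6 kb in Ep300Δ/ΔTet2-/- cells. At Ms4a2 the H3K27ac length did, with 1.80, 0.225, 0.445, and 1.13 kb in the same order, and so did the H3K4me1 length at Mitf, with 7.69, 8.28, 10.4, and 8.59 kb. The 2 H3K27ac peaks added at Ms4a2 in Ep300Δ/ΔTet2-/- cells were weak, with −log10 q of 3.42 and 4.38. The first of them, 487 bp long, lay at the promoter of the neighbor Ms4a3.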

How the results depend on the processing

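Of 84 alternative counts, 60 stayed within 1.5 times the reported ones. The interval of the lost share lay above the share of all regions under 7 of 7 alternatives for H3K4me3 from Tet2-/- to Ep300Δ/ΔTet2-/-. For H3K27ac it did so under 6 of 7 from WT to Ep300Δ/Δ (not with lists of equal length) and 5 of 7 from WT to Tet2-/- (not with equal lists or without flank). For H3K4me1 it did so under 5 of 7 from WT to Ep300Δ/Δ (not without flank or with −log10 q of at least 5) and 4 of 7 from Tet2-/- to Ep300Δ/ΔTet2-/- (not without flank, with 50 kb of flank, or without neighbors' promoters). For H3K27ac from Tet2-/- to Ep300Δ/ΔTet2-/- it did so under 0 of 7, as in the reported value. The counts that moved further follow. Without flanking sequence, H3K27ac regions lost were 8 (WT to Ep300Δ/Δ) and 6 (WT to Tet2-/-), and 0 were gained from Tet2-/- to Ep300Δ/ΔTet2-/-, while H3K4me1 regions lost and gained were 20 and 11 (WT to Ep300Δ/Δ) and 15 and 6 (Tet2-/- to Ep300Δ/ΔTet2-/-). With 50 kb of flank, H3K27ac regions gained were 1 (WT to Ep300Δ/Δ) and 5 (WT to Tet2-/-), and 8 were lost from Tet2-/- to Ep300Δ/ΔTet2-/-. With −log10 q of at least 5, H3K27ac regions lost were 17 of 19 (WT to Ep300Δ/Δ) and 11 (WT to Tet2-/-), with 0 gained from Tet2-/- to Ep300Δ/ΔTet2-/-, and H3K4me1 regions gained were 9 and 7. With lists of equal length, H3K27ac regions lost were 4 (WT to Ep300Δ/Δ), 4 (WT to Tet2-/-), and 3 (Tet2-/- to Ep300Δ/ΔTet2-/-), and gained were 1 (WT to Ep300Δ/Δ) and 4 (Tet2-/- to Ep300Δ/ΔTet2-/-). From Tet2-/- to Ep300Δ/ΔTet2-/-, asking for 50% of bases covered gave 1 H3K4me3 region gained, assigning regions to the nearest coding start gave 0 H3K27ac and 7 H3K4me1 regions gained, and leaving out promoters of neighboring coding genes, an alternative chosen after seeing the data, gave 1 H3K27ac region gained. Fewer regions enter where windows or lists are shorter, and otherwise the cause was not tested. No paired analysis was possible because each genotype and mark has 1 library. Depth and variation between animals were not measured.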
